A study of Mus musculus with 17 samples.

Results

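Integrins and the other adhesion molecules of leukocytes were described here as 1 gene group of 32 members. Members were taken by gene symbol from the deposited table, and all 32 were found among its 24453 gene models. They comprised 5 alpha subunits of collagen and laminin receptors, 4 alpha subunits of receptors for fibronectin, vitronectin and fibrinogen, the alpha4 and alpha9 subunits, 4 leukocyte alpha subunits, 8 beta subunits, 5 ligands of the immunoglobulin superfamily, 2 receptors for selectins or hyaluronan, and 2 membrane partners of integrins.

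An integrin is a heterodimer of 1 alpha and 1 beta subunit that spans the membrane and ties the cytoskeleton to matrix proteins or to ligands on other cells. A beta subunit can pair with several alpha subunits, so that the alpha subunit largely sets the ligand: Itgb2 pairs with Itgal (LFA-1), Itgam (Mac-1 or CD11b) and Itgax (CD11c) on leukocytes, whereas Itgb1 pairs with many alpha subunits, including Itga4, Itga5 and Itga6, and Itgav pairs with several beta subunits, including Itgb3 and Itgb5. Macrophages use these receptors to leave the blood, to hold on to matrix and to engulf opsonised or dying cells.

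The study asked what individual AP-1 transcription factors do in mouse macrophages, and polyA RNA-seq of 13 libraries was analysed here. Of these, 8 came from iBMDMs, bone marrow-derived macrophages of C57Bl/6EiJ genotype immortalized with BRAF(V600E) and Myc and used at passage 3 to 8. The groups were Scramble Control (n = 2), Atf3KO (n = 2), JunKO (n = 2) and JunDKO (n = 2), all labelled as vehicle treated in the treatment field, although the Scramble titles carry the word zsGreen where those of the knockouts carry Veh. The knockout groups were made from iBMDMs that carry Cas9 and EGFP, by lentiviral guides and sorting for a viral marker, and they were not stated to be single clones. The study's methods do not say whether Scramble was made and sorted in the same way. The other 5 libraries were from TGEMs, thioglycollate elicited peritoneal macrophages of male mice aged 8 weeks, given PBS (vehicle) or KLA, the lipid A part of endotoxin, which acts through TLR4, for 1 h. There was 1 vehicle and 1 KLA library for C57Bl/6EiJ mice, while Balb/cJ mice had 1 vehicle library and 2 KLA libraries. Nothing in the labels says that replicates came from separate cultures or animals, so p-values measure only the spread between these libraries.

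Depth ranged from 1553296 to 18444428 reads per library, and the lowest and the highest depth were both in JunDKO. All 8 macrophage markers examined were at 1 RPKM (reads per kilobase of exon, scaled to a common library depth) or more in every library. The targeted genes were not lowered clearly at the RNA level, which does not test a small edit: Atf3 measured 154 and 169 RPKM in Atf3KO against 80.7 and 77.4 in Scramble, Jun 26.2 and 20.5 in JunKO against 17.6 and 18.5, and Jund 6.94 and 6.07 in JunDKO against 9.19 and 8.33. The study's methods include a western blot check of the knockouts, which is not analysed here. All directions given for a knockout below are therefore those of the libraries labelled as that knockout. The 5 TGEM libraries, labelled male, held 863 to 8676 reads of Xist, the RNA of the inactive X chromosome, against 0 to 3 in the iBMDM libraries. Atf3KO replicate 2 carries another label date than the other 7 iBMDM libraries, and strain and label date cannot be told apart in the TGEMs. The 2 Atf3KO libraries detected 10425 and 10631 gene models, against 11884 to 12533 in the other iBMDM libraries.

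Of the 32 members, 18 reached a mean of 16 RPKM in at least 1 group, the level the study required for a call, and 14 did not. That level was reached by 14 members in iBMDMs, by 15 in TGEMs and by 11 in both. The 14 low members never exceeded 10.6 RPKM in a library, and 9 of them stayed under 1 RPKM in all 13 libraries: Itga1, Itga2, Itga7, Itga2b, Itgae, Itgb4, Itgb6, Itgb8 and Pecam1. The collagen receptor subunits Itga1 and Itga2 peaked at 0.207 and 0.363 RPKM, the platelet subunit Itga2b at 0.125 RPKM and the endothelial and leukocyte adhesion molecule Pecam1 at 0.61 RPKM. Both cell types held beta2, beta1 and beta5 subunits with very little RNA of the collagen receptors, and they differed in which alpha and beta subunits were high.

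**Figure D1:**
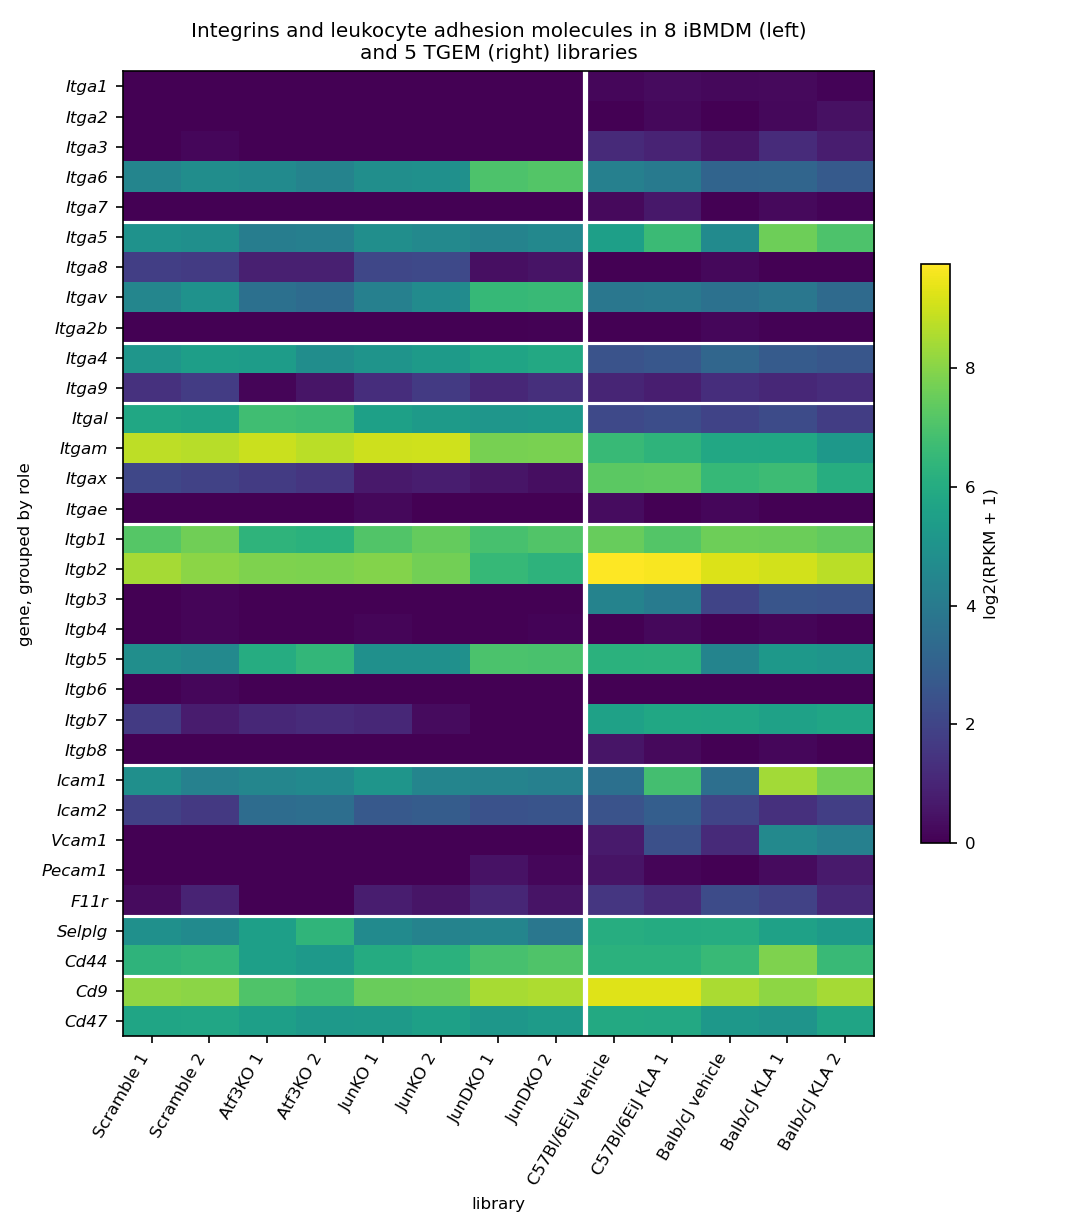
Heat map of log2(RPKM + 1) for the 32 members (rows, ordered by role) in the 13 libraries (columns, ordered by group). Itgam and Itgb2 are high throughout, Itgax and Itgb7 are high in the TGEM libraries and at most at 3.24 RPKM in the iBMDM libraries, and the collagen receptor subunits are near 0 in every library.

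Upstream sequence was available for 21 members in the RefSeq promoter table (build GRCm38.p6). It was not for Itga6, Itga7, Itgae, Itgal, Itgb2, Itgb3, Itgb4, Icam2, Vcam1, Pecam1 and Selplg. The 3 windows printed here belong to Icam1, Itgax and Itgb5, members on which the results turn. On the log2(RPKM + 1) scale, Icam1 had the largest fold of the members after KLA. Itgax had the largest between TGEMs and iBMDMs on that scale, and Itgb5 differed from Scramble in both Atf3KO and JunDKO. Each window is the stretch of up to 250 bases before the RefSeq transcription start, 5′ to 3′ on the gene's strand. Icam1 is chr9:21015690-21015939 on the plus strand, Itgax is chr7:128129300-128129525 on the plus strand with 24 bases of annotated exon left out, and Itgb5 is chr16:33829415-33829664 on the plus strand. Capitals mark GGAAATTCC in Icam1 and TGAGTCA in Itgax.
Icam1: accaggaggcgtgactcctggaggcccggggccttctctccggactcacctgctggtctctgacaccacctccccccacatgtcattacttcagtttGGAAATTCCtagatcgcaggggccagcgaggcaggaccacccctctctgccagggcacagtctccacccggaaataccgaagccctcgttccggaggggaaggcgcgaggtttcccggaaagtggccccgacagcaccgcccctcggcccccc
Itgax: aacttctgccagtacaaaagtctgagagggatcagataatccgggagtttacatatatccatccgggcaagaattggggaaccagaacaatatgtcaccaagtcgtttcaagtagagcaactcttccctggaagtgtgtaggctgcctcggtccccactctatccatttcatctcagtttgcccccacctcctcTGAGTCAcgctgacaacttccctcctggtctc
Itgb5: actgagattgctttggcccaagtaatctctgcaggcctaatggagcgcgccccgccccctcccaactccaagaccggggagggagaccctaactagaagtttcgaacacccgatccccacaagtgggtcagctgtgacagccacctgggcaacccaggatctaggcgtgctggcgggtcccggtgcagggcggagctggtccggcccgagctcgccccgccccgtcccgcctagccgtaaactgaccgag
The patterns searched, on both strands, were the AP-1 site known as TRE (TGAGTCA or TGACTCA), the AP-1 site known as CRE (TGACGTCA), and GGAANTTCC, a pattern recognised by NF-kappaB dimers. Motif positions are counted from the RefSeq start, which for Icam1 and Itgax lies upstream of the start of the deposited gene model given further on. GGAAATTCC stands 153 to 145 bases before the start of Icam1, the only 1 of the 21 members with GGAANTTCC, which 0.813% of 32851 promoter windows of that length held. TGAGTCA stands 56 to 50 bases before the start of Itgax, and F11r was the other member with a TRE, which 4.46% of the windows held. No member had the CRE, found in 1.55% of the windows. The Itgb5 window held none of the 3 patterns, which says only that these letters are not in it.

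The first question was what loss of JunD did to the group. In the JunDKO libraries the laminin receptor subunit Itga6 and both subunits of the vitronectin receptor alphavbeta5, Itgav and Itgb5, were 3.57 to 5.57 times their Scramble level on the log2(RPKM + 1) scale, while Itgb2, the beta subunit common to the leukocyte integrins, was 3.56 times lower. A gene was called when its limma-trend p, adjusted over all 10691 gene models tested, was under 0.05, its fold was at least 2 and a group mean reached 16 RPKM. By that rule 4 of 18 tested members were called, 3 higher and 1 lower, where 4.97% of all tested models were called. The median log2 fold change was -0.39 over the tested members and 0.23 over all models.

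Itga6 (chromosome 2, 71786939 to 71858427, plus strand, mm10), which pairs with Itgb1 or Itgb4, measured 130.3 and 139 RPKM in JunDKO, 20.6 and 26.4 in Scramble, 27.2 and 29.1 in JunKO, with 24.4 and 19.7 in Atf3KO. The 2 JunDKO libraries stood far above the other 6, which lay between 19.7 and 29.1 RPKM. Against Scramble its log2 fold change was 2.48 ± 0.19 (SE, n = 2 and 2, limma-trend adjusted p = 2.32e-04).

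Itgav (chromosome 2, 83724397 to 83806917, plus strand), the alpha subunit of several receptors for RGD-bearing matrix proteins, measured 91.4 and 97.2 RPKM in JunDKO, 21.5 and 30.6 in Scramble, 17.8 and 25.3 in JunKO, with 11.2 and 9.52 in Atf3KO. Its levels were highest in JunDKO and lowest in Atf3KO, with no overlap with the Scramble libraries in either case. In JunDKO the log2 fold change was 1.84 ± 0.24 (SE, adjusted p = 0.00242).

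Itgb5 (chromosome 16, 33829665 to 33949338, plus strand), the beta subunit that pairs with Itgav, measured 125 and 122 RPKM in JunDKO, 65.0 and 85.6 in Atf3KO, 28.6 and 28.7 in JunKO, with 27.5 and 23.1 in Scramble. Both JunDKO and both Atf3KO libraries lay above all 4 Scramble and JunKO libraries. For JunDKO against Scramble the log2 fold change was 2.25 ± 0.19 (SE, adjusted p = 3.33e-04).

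Itgb2 (plus strand of chromosome 10, 77530348 to 77565674) was at 91.7 and 78.5 RPKM in JunDKO against 346 and 268 in Scramble, 231 and 227 in Atf3KO, and 242 and 204 in JunKO. Both JunDKO libraries were below the other 6. Against Scramble the log2 fold change was -1.83 ± 0.19 (SE, adjusted p = 7.89e-04). All 4 of these calls held under each of the 15 alternatives that kept the fold and RPKM limits, and at a log2 fold change of at least 2 only Itga6 and Itgb5 were left.

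The alpha partners of Itgb2 also had lower RPKM in both JunDKO libraries than in either Scramble library, and none of them was called. Such a lack of overlap was common in this comparison, at 17 of 18 tested members and 61.6% of all tested models. Itgam, the alpha subunit of the complement receptor Mac-1, measured 213 and 219.9 RPKM in JunDKO against 441 and 420.2 in Scramble, with no overlap. Its log2 fold change of -0.99 ± 0.16 (SE, adjusted p = 0.00598) stopped just short of 2-fold, and it was called in 3 of the 15 alternatives, at -1.27 with equal library medians, at -1.17 after the GC correction and at -1.02 without Scramble replicate 2. Itgal, the alpha subunit of LFA-1, measured 33.4 and 35.5 RPKM against 54.7 and 50.8 (log2 fold change -0.60, adjusted p = 0.0541, or 0.0174 with the replicate number as a block over Scramble, JunKO and JunDKO). Members with an adjusted p under 0.05 numbered 7 as reported and 9 when the Atf3KO libraries were only left out. With that block as well they numbered 14, and neither step added a call. A replicate block that kept the Atf3KO libraries left the number at 7. Itgax measured 0.484 and 0.299 RPKM against 3.24 and 2.78 (log2 fold change -1.53, adjusted p = 0.0131), under the level of 16 RPKM. Against JunKO the log2 fold change of JunDKO was -0.29 for Itgal and -0.26 for Itgax, and neither passed.

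JunDKO was also compared with JunKO, which leaves Scramble out. Of 18 tested members 5 were called, against 3.5% of all models. Itga6 (log2 fold change 2.22), Itgav (2.10) and Itgb5 (2.07) were higher in JunDKO, and Itgam (-1.27, adjusted p = 0.00269) and Itgb2 (-1.38, adjusted p = 0.00425) were lower. Without JunDKO replicate 2, the deepest library, Itgb2 had a log2 fold change of -1.27 and an adjusted p of 0.0638, which is not a call.

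Several other measures moved in the JunDKO libraries. Of the 8 macrophage markers 4 were higher without overlap in JunDKO than in Scramble (Csf1r, Cd68, Mertk and Fcgr1), 2 were lower (Adgre1 and Lyz2) and 2 overlapped, where 61.6% of all tested models did not overlap. Their summed level was 16800 to 17400 RPKM in JunDKO and 22000 to 23600 in Scramble, most of it from Lyz2, while Mertk measured 36.1 and 36.8 RPKM against 7.04 and 8.27. Of 10 neutrophil markers 8 were at 0 in both groups. S100a8 was at 0 in JunDKO against 34.8 and 33.2 RPKM, whereas Csf3r was higher, at 14.1 and 12.5 RPKM against 2.53 and 3.31, and the summed level was 12.5 to 14.1 RPKM against 36.5 to 37.3. The summed level of 5 platelet and megakaryocyte markers was 262 to 302 RPKM against 10.9 to 21.5, nearly all of it from Pf4. Ppbp was at 2.99 and 4.14 RPKM in JunDKO and at 0 in every other library, Gp9 and Gp6 were at 0 in all iBMDM libraries, and Itga2b was at most at 0.032 RPKM in them. The part of these measures in the integrin differences was not tested. In bulk RNA, fewer cells of a type and less RNA per cell cannot be told apart.

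**Figure D2:**
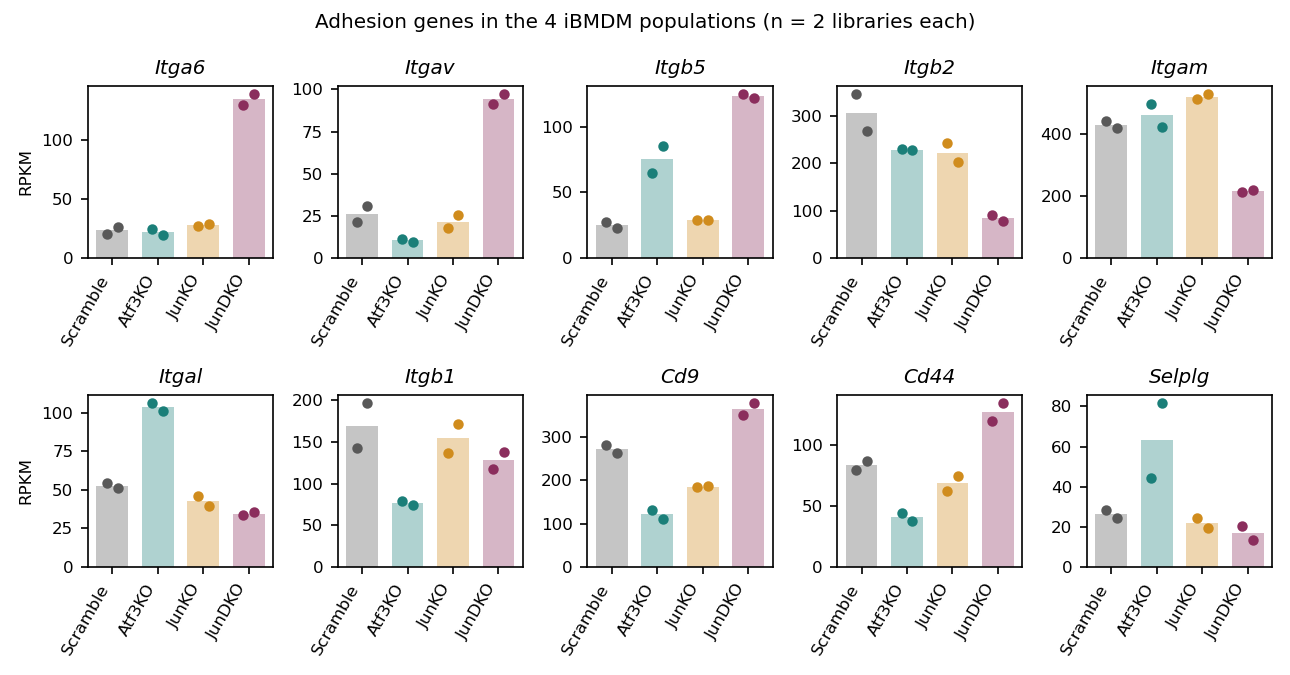
RPKM of 10 members in the 8 iBMDM libraries: bars are the mean of 2 libraries, points the libraries, and each panel has its own axis from 0. Itga6, Itgav and Itgb5 are highest in JunDKO, Itgb2 and Itgam are lowest there, and Selplg and Itgb5 are raised in Atf3KO while Itgb1, Cd44 and Cd9 are lowest there.

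In the Atf3KO libraries the pattern was another one. Itgb5 and the selectin ligand Selplg were higher than in Scramble, and Itgav, Itgb1, the hyaluronan receptor Cd44 and the tetraspanin Cd9 were lower by 2.02 to 2.35 times. By the rule above 6 of 18 tested members were called, 2 higher and 4 lower, against 12.5% of all models. The median log2 fold change was -0.38 over the tested members and 0.05 over all models.

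Among the beta subunits, Itgb5 had the larger change, a log2 fold change of 1.53 ± 0.19 (SE, adjusted p = 0.00117) from the levels given above. Itgb1, the common beta subunit of the matrix receptors, measured 79.7 and 74.1 RPKM in Atf3KO. Its level was 142 and 197 RPKM in Scramble, 118 and 138 in JunDKO, and 137 and 172 in JunKO. Both Atf3KO libraries were below all 6 others (log2 fold change against Scramble -1.11 ± 0.21, adjusted p = 0.00548). Itgav had a log2 fold change of -1.23 ± 0.24 (SE, adjusted p = 0.00603).

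Selplg (PSGL-1), the ligand through which leukocytes roll on selectins, measured 44.4 and 81.6 RPKM in Atf3KO, and its level was 28.5 and 24.3 in Scramble, 20.6 and 13.5 in JunDKO, and 24.1 and 19.3 in JunKO. The 2 Atf3KO libraries did not overlap the others but lay far apart, and the higher was the library with the other label date. Its log2 fold change against Scramble was 1.17 ± 0.32 (SE, adjusted p = 0.0203).

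Cd44 measured 119 and 134 RPKM in JunDKO, 79.4 and 87.0 in Scramble, 62.3 and 74.7 in JunKO, with 44.0 and 37.5 in Atf3KO. Cd9, a tetraspanin that forms complexes with integrins, measured 352 and 378 RPKM in JunDKO, 282 and 262 in Scramble, 184 and 187 in JunKO, with 132 and 112 in Atf3KO. For both genes the 4 groups did not overlap, with Atf3KO lowest and JunDKO highest. The log2 fold change of Atf3KO against Scramble was -1.02 ± 0.18 for Cd44 (SE, adjusted p = 0.00412) and -1.16 ± 0.16 for Cd9 (SE, adjusted p = 0.00174).

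Itgal and Icam2 passed the adjusted p but each missed 1 other limit. Itgal measured 106 and 101 RPKM in Atf3KO, 54.7 and 50.8 in Scramble, 33.4 and 35.5 in JunDKO and 45.8 and 39.3 in JunKO, and its log2 fold change of 0.96 ± 0.17 (SE, adjusted p = 0.00373) was just under 2-fold. Icam2, a ligand of LFA-1, measured 9.81 and 10.6 RPKM against 2.74 and 2.06 in Scramble (log2 fold change 1.73 ± 0.22, adjusted p = 0.00117), under the level of 16 RPKM. Both genes were higher in both Atf3KO libraries than in any other iBMDM library. F11r (JAM-A), a junctional adhesion molecule, had 0 reads in the Atf3KO libraries and 1 and 4 in the Scramble libraries, too few for a fold.

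These calls moved with the GC content of the transcripts. Over 10617 gene models the log2 fold change of Atf3KO against Scramble rose with exonic GC content (Spearman's rho 0.50, given as a description). The 4 members called lower had a GC content of 43.5% (Itgav), 43.7% (Itgb1), 44.0% (Cd44) and 45.4% (Cd9), and the 2 called higher had 57% (Itgb5) and 55.6% (Selplg). After a correction for GC content all 6 kept their direction and an adjusted p under 0.05, and none reached 2-fold: Itgb5 had a log2 fold change of 0.95, Selplg 0.70, Itgav -0.74, Itgb1 -0.63, Cd44 -0.55 and Cd9 -0.79. Itga5, the fibronectin receptor alpha subunit, then became the only call, at -1.37 ± 0.20 (SE, adjusted p = 0.00171) from -0.74 before the correction, with 16.6 and 17.5 RPKM in Atf3KO against 30.1 and 28.0 in Scramble. The same trend was weak for JunDKO against Scramble (rho 0.09), whose 4 calls all remained after the correction.

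Single libraries also decided some of these calls. Without Scramble replicate 2, 2 members were called (Itgb5 and Cd9), and Itgav (-0.99, adjusted p = 0.0505), Itgb1 (-0.88, adjusted p = 0.0446), Selplg (1.05, adjusted p = 0.12) and Cd44 (-0.95, adjusted p = 0.036) were not. Without Atf3KO replicate 2, Selplg (0.73, adjusted p = 0.107) and Cd44 (-0.90, adjusted p = 0.0198) were not called. Without Scramble replicate 1, Selplg (1.28, adjusted p = 0.0608) was not called and Itgal (1.01, adjusted p = 0.0191) was.

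Marker genes moved in the Atf3KO libraries as well. Of the 8 macrophage markers 5 were higher without overlap than in Scramble (Csf1r, Cd68, Mertk, Fcgr1 and Spi1) and 3 overlapped, where 70.8% of all tested models did not overlap. Their summed level was 23700 to 32700 RPKM in Atf3KO and 22000 to 23600 in Scramble, most of it from Lyz2. Of the 10 neutrophil markers Csf3r was higher, at 10.6 and 11.6 RPKM against 2.53 and 3.31, S100a8 overlapped (41.1 and 21.8 against 34.8 and 33.2) and the same 8 were at 0 in both groups. The 5 platelet and megakaryocyte markers summed to 48.6 to 56.3 RPKM against 10.9 to 21.5, with Ppbp, Gp9 and Gp6 at 0 in both groups. Pf4 (47.2 and 54.8 RPKM against 10.7 and 21.0) and Gp1ba (1.42 and 1.57 against 0.19 and 0.429) were higher without overlap. Atf3KO replicate 2 stood apart at single genes, with 83 RPKM of Jund against 22.6 in replicate 1 and 494 RPKM of the myeloid factor Spi1 against 211. The part of these measures in the member differences was not tested.

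**Figure D3:**
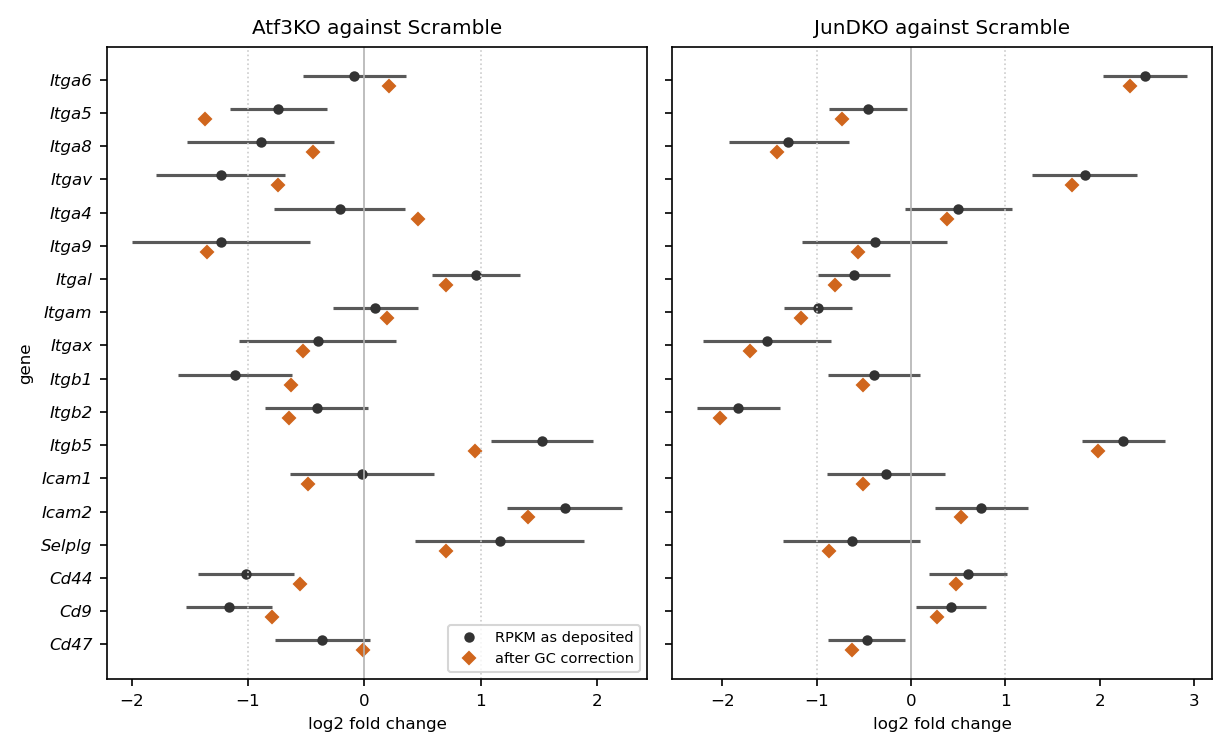
Log2 fold change against Scramble of the 18 tested members in Atf3KO and in JunDKO: circles with 95% intervals are the deposited RPKM, diamonds the values after the GC correction, and dotted lines mark 2-fold. The 4 called JunDKO members stay outside the 2-fold lines and Itgam moves across one (-0.99 to -1.17), while in Atf3KO the 6 called members move inside the lines.

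In the JunKO libraries no member was called and none had an adjusted p under 0.05 as fitted over all 8 iBMDM libraries. With the replicate number as a block over the Scramble, JunKO and JunDKO libraries alone, Cd9 (-0.55, adjusted p = 0.0399) passed the adjusted p without reaching 2-fold, Itgb2 had an adjusted p of 0.0627, and 0.589% of all models were called. With limma-trend 4 of 18 members had an unadjusted p under 0.05, limma-voom on reads recovered from the RPKM also called 0, and 0.196% of all models were called. The median log2 fold change was -0.17 over the tested members and 0.01 over all models. The 4 were Itgax (0.588 and 0.731 RPKM in JunKO against 3.24 and 2.78 in Scramble, adjusted p = 0.2), Itgb2 (adjusted p = 0.61), Icam2 (5.68 and 6.16 against 2.74 and 2.06, adjusted p = 0.161) and Cd9 (adjusted p = 0.363). The 95% interval of the log2 fold change was -0.19 to 0.71 for Itga6, -0.82 to 0.29 for Itgav and -0.26 to 0.62 for Itgb5, so that the increases seen in the JunDKO libraries lie outside these intervals.

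The knockouts were then compared with each other, which leaves Scramble out. Atf3KO against JunDKO gave 8 calls among 18 tested members, against 12.2% of all models. Itgal (log2 fold change 1.56), Itgam (1.08), Itgb2 (1.42) and Selplg (1.79) were higher in Atf3KO, and Itga6 (-2.56), Itgav (-3.07), Cd44 (-1.62) and Cd9 (-1.58) were lower. Itgav had the largest difference, 8.39 times lower in Atf3KO than in JunDKO. The Itgam call was lost at 0.81 under quantile normalization and at 0.96 without Atf3KO replicate 1, without which Itga4 was called, at -1.01. This comparison also rose with GC content (Spearman's rho 0.45, given as a description). After the GC correction all 8 calls remained, with Cd44 at -1.03 and Cd9 at -1.07, and Itgb5 was called too (-1.03, adjusted p = 0.0011, against -0.72 before).

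Atf3KO against JunKO gave 3 calls, all higher in Atf3KO, against 9.71% of all models. They were Itgal (log2 fold change 1.27, adjusted p = 0.00189), Itgb5 (1.35, adjusted p = 0.00238) and Selplg (1.44, adjusted p = 0.0112). The Selplg call was lost without Atf3KO replicate 2 (1.01, adjusted p = 0.0569) and without JunKO replicate 2 (1.29, adjusted p = 0.0857), and Itgb5 fell to 0.85 after the GC correction, which left the count at 3 because Itga5 was then called (-1.06, adjusted p = 0.00608). This comparison too rose with GC content (Spearman's rho 0.50, given as a description). Without Atf3KO replicate 1 or without JunKO replicate 1, Itgav (-1.08 and -1.21) and Itgb1 (-1.04 and -1.15) were called as well, which made 5. The comparisons against Scramble share the Scramble libraries, and these comparisons share knockout libraries, so they are not independent of one another.

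The remaining members with more than 16 RPKM in iBMDMs gave no call between iBMDM groups as deposited. Itga4, the alpha subunit of VLA-4, measured 51.2 and 58.7 RPKM in JunDKO, 34.1 and 43.3 in Scramble, 31.7 and 38.9 in JunKO, with 40.9 and 26.6 in Atf3KO. Icam1, the ligand of LFA-1 and Mac-1, measured 27.6 and 18.7 RPKM in Scramble, 21.3 and 23.5 in Atf3KO, 19.6 and 18.0 in JunDKO, and 33.2 and 20.5 in JunKO. Cd47, the integrin-associated protein that signals against engulfment, measured 51.8 and 53.1 RPKM in Scramble, 44.0 and 37.6 in Atf3KO, 35.2 and 40.1 in JunDKO, and 38.2 and 45.1 in JunKO. For Icam1 both JunDKO libraries lay below the Atf3KO and JunKO libraries, and the other pairs of groups overlapped. Itga4 was highest in both JunDKO libraries and Cd47 was highest in both Scramble libraries. Itga5 measured 26.9 and 22.9 RPKM in JunKO, with 19.4 and 22.5 in JunDKO.

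Low members also differed. Itga8, a fibronectin receptor alpha subunit, measured 3.26 and 3.45 RPKM in JunKO, 2.52 and 2.24 in Scramble, 0.831 and 0.817 in Atf3KO and 0.336 and 0.415 in JunDKO. Its 4 groups did not overlap, and its log2 fold change against Scramble was -0.89 in Atf3KO (adjusted p = 0.0327) and -1.30 in JunDKO (adjusted p = 0.0202). Itga9, which shares ligands with Itga4, measured 0.098 and 0.456 RPKM in Atf3KO against 1.64 and 2.35 in Scramble (adjusted p = 0.0197). Itgb7, a partner of Itga4 and Itgae, had 11 and 3 reads in the Scramble libraries and 0 in both JunDKO libraries.

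The second question was the response of TGEMs to 1 h of KLA, fitted over the 5 TGEM libraries with a term for strain. Icam1 rose 15.6-fold on the log2(RPKM + 1) scale and Vcam1, the ligand of alpha4beta1, rose from near 0. No integrin subunit passed limma-trend, and limma-voom on the recovered reads called 1, Itga5. Of 21 tested members 1 was called, against 1.13% of the 10357 models tested, and the median log2 fold change was -0.06 over the tested members and -0.15 over all models.

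Icam1 (plus strand of chromosome 9, 21015960 to 21028796) measured 11.0 RPKM in the C57Bl/6EiJ vehicle library and 113 after KLA. In Balb/cJ it measured 10.8 RPKM with vehicle and 337 and 211 after KLA. All 3 KLA libraries were above both vehicle libraries, with a log2 fold change of 3.97 ± 0.38 (SE, n = 3 and 2, limma-trend adjusted p = 0.00279). Without the Balb/cJ vehicle library, the shallowest of the TGEM libraries, the log2 fold change was 3.25 and the adjusted p 0.161.

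Vcam1 (chromosome 3, 116110020 to 116129688, minus strand) measured 0.621 RPKM with vehicle and 4.27 with KLA in C57Bl/6EiJ, and 1.26 with vehicle and 22.8 and 17.8 with KLA in Balb/cJ. Again every KLA library was above both vehicle libraries. The log2 fold change was 2.57 ± 0.37 (SE, limma-trend adjusted p = 0.0185), and the KLA mean of 15 RPKM kept it from being called. Vcam1 was at 0.73 RPKM over the pooled vehicle reads and passed the filter on low values only through the KLA libraries. Its p and its calls are therefore no support for the change, which is given by the values alone. It was called without the C57Bl/6EiJ KLA library (3.23) and when no RPKM minimum was set. With a pseudocount of 5 or without the filter on low values it did not pass the adjusted p. Nor did it pass without the strain term or with the label date in place of strain. Over the alternatives its log2 fold change ranged from 1.46 to 3.31. Vcam1 and Icam1 are also made by endothelial cells: the summed level of 5 endothelial markers was 2.06 to 4.3 RPKM with KLA and 1.8 to 6.2 with vehicle. Kdr, at 1.80 to 5.28 RPKM in the 5 TGEM libraries, made up most of this sum, and Tek was at 0 in all. Markers of other peritoneal cells are given below, and the part of other cells in these differences was not tested.

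Itga5 (chromosome 15, 103344286 to 103366791, minus strand), which with Itgb1 forms the classical fibronectin receptor, measured 44.2 RPKM with vehicle and 99.8 with KLA in C57Bl/6EiJ, and 24.3 with vehicle and 191 and 129 with KLA in Balb/cJ. The KLA libraries did not overlap the vehicle libraries. With a log2 fold change of 2.01 ± 0.39 it did not pass limma-trend (SE, adjusted p = 0.0674), whereas limma-voom on the recovered reads called it (2.04, adjusted p = 1.94e-04). Cd44 measured 73.3 RPKM with vehicle and 74.3 with KLA in C57Bl/6EiJ, and 94.4 with vehicle and 233 and 95.7 with KLA in Balb/cJ. Only 1 of the 3 KLA libraries was high (log2 fold change 0.38 ± 0.41, adjusted p = 0.684).

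No beta2 integrin subunit passed the test. Itgb2 measured 859 and 801 RPKM in C57Bl/6EiJ and 597, then 540.4 and 424, in Balb/cJ, each time with vehicle first. The 95% interval of its log2 fold change was -0.84 to 0.39, that of Itgam -0.96 to 0.38 and that of Itgax -0.76 to 0.60. The interval of Itgb1 was -0.81 to 0.39.

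**Figure D4:**
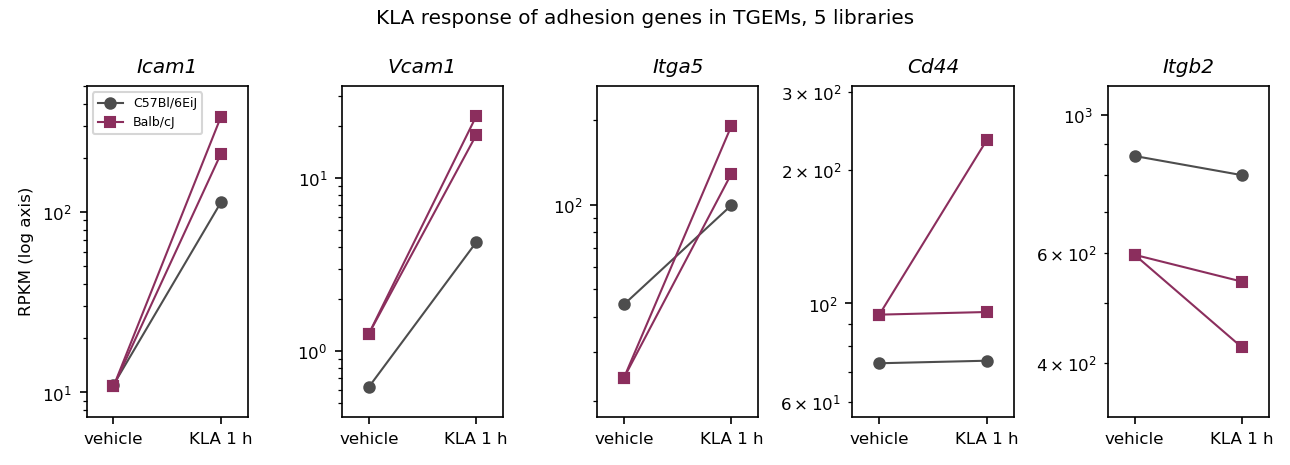
RPKM on a log axis of Icam1, Vcam1, Itga5, Cd44 and Itgb2 in the 5 TGEM libraries, with lines joining vehicle to KLA within each strain. Icam1, Vcam1 and Itga5 are higher with KLA than with vehicle in both strains, Cd44 is high in 1 KLA library, and Itgb2 stays between 424 and 859 RPKM.

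Balb/cJ libraries had the larger KLA differences at these genes, but the interaction of KLA with strain passed for no gene. For Icam1 the KLA minus vehicle difference of log2(RPKM + 1) was 3.25 in C57Bl/6EiJ and 4.84 and 4.16 in Balb/cJ. For Vcam1 it was 1.70 against 3.40 and 3.05, and for Itga5 1.16 against 2.93 and 2.36. Vcam1 entered the interaction test, like the KLA test, only through the KLA libraries. With limma-trend 0 of 21 members and 0 of 10357 models passed an adjusted p of 0.05 for the interaction. The 1 member with an unadjusted p under 0.05 was Vcam1, with an interaction of 1.53 ± 0.50 (SE) on the log2 scale and a limma-trend adjusted p of 0.589.

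The third comparison was between strains. Of 21 tested members 1 was called, Itgb3, lower in Balb/cJ, against 1.16% of all models. The median log2 fold change of Balb/cJ against C57Bl/6EiJ was -0.27 over the tested members and -0.08 over all models. Itgb3, the beta subunit of the vitronectin receptor alphavbeta3, measured 19.6 and 15.7 RPKM in C57Bl/6EiJ and 3.04, 4.95 and 4.64 in Balb/cJ, without overlap. The log2 fold change of -1.88 ± 0.27 (SE, adjusted p = 0.0196) lost its call without a filter on low values (adjusted p = 0.116) and in 4 of 5 fits that left out 1 library: without the Balb/cJ vehicle library (-1.53, adjusted p = 0.209), without Balb/cJ KLA replicate 1 (-1.96, adjusted p = 0.151), and without the C57Bl/6EiJ vehicle (-1.53, adjusted p = 0.151) or KLA library (-2.35, adjusted p = 0.0513).

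The next members by p also went toward lower levels in Balb/cJ but did not pass. Itgb5 measured 74.5 and 75.4 RPKM in C57Bl/6EiJ and 20.2, 36.1 and 33.3 in Balb/cJ (log2 fold change -1.41, adjusted p = 0.0522). Itga6 measured 17.8 and 14.6 RPKM in C57Bl/6EiJ and 7.72, 7.94 and 5.78 in Balb/cJ (-1.05, adjusted p = 0.0798). Neither gene overlapped between strains, and both were called by limma-voom on the recovered reads (Itgb5 -1.43, Itga6 -1.14). The log2 fold change between strains fell with GC content over 10286 models (Spearman's rho -0.45, given as a description). Marker genes also differed between the strains: Pf4 measured 36.9 and 40.3 RPKM in C57Bl/6EiJ and 1.46 to 3.91 in Balb/cJ, and 4 of 8 macrophage markers were lower in every Balb/cJ library: Csf1r (173 and 183 against 58.6 to 83.1), Adgre1 (60.7 and 72.3 against 31.1 to 35.9), Mertk (41.4 and 57.9 against 15.5 to 20.9) and Fcgr1. The other 4, Cd14, Cd68, Lyz2 and Spi1, overlapped between strains, and 35.1% of all tested models did not. Their part in the member differences was not tested.

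The last comparison set the C57Bl/6EiJ vehicle TGEM library (n = 1) against the Scramble iBMDM libraries (n = 2), with the spread taken from all 13 libraries and the single TGEM library assumed to vary like the other groups. TGEMs carried CD11c, beta3 and beta7 RNA that iBMDMs almost lacked, and iBMDMs carried far more LFA-1 alpha subunit and Itga4. Of 22 tested members 10 were called, 7 higher and 3 lower in TGEMs, against 20.8% of 10929 models. The median log2 fold change was 0.39 over the tested members and -0.24 over all models. A member present in 1 cell type only could pass the filter on low values through that cell type alone, so these counts lean toward members that differ. Of those called, Itgb3 and Itgb7 averaged under 1 RPKM over the iBMDM libraries and passed the filter only through TGEMs. The calls rest on 1 TGEM library: with the C57Bl/6EiJ and Balb/cJ vehicle libraries taken as 1 group, 3 were no longer called: Itgb5 (0.61, adjusted p = 0.314) and Cd9 (0.81) by their fold, and Itgb3 (3.12, adjusted p = 0.00208) because its mean fell under 16 RPKM.

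Among the leukocyte alpha subunits, Itgax (plus strand of chromosome 7, 128129568 to 128150657) measured 156 RPKM in the C57Bl/6EiJ vehicle TGEMs and 160.0 with KLA, 92.3, 101 and 67.2 in Balb/cJ, 3.24 and 2.78 in Scramble and at most 2.28 in the other iBMDM libraries. Itgal measured 3.45 RPKM in the vehicle TGEMs and 3.97, 2.88, 3.75 and 2.43 in the other TGEM libraries. Itgam measured 94.1 and 80.0 RPKM in C57Bl/6EiJ TGEMs and 56.0, 54.6 and 36.1 in Balb/cJ. For all 3 subunits the 5 TGEM libraries lay apart from the 8 iBMDM libraries, and the direction was opposite for Itgax and the other two. The log2 fold change against Scramble was 5.30 ± 0.28 for Itgax (SE, adjusted p = 9.14e-06), -3.59 ± 0.25 for Itgal (SE, adjusted p = 2.67e-05) and -2.18 ± 0.26 for Itgam (SE, adjusted p = 3.65e-04).

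The make-up of the beta2 alpha subunits thus differed on the RPKM scale, which is per length. Itgax made up 61 to 65.6% of the summed RPKM of Itgal, Itgam and Itgax in TGEMs and 0.105 to 0.65% in iBMDMs. Itgal made up 1.36 to 2.36% in TGEMs and 6.9 to 19.3% in iBMDMs, highest in the 2 Atf3KO libraries. Itgb2 was 3.28 to 4.01 times the sum of the 3 alpha subunits in TGEMs and 0.307 to 0.694 times that sum in iBMDMs, so that alpha subunit RNA was in excess in the cell line and beta subunit RNA in the primary cells.

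**Figure D5:**
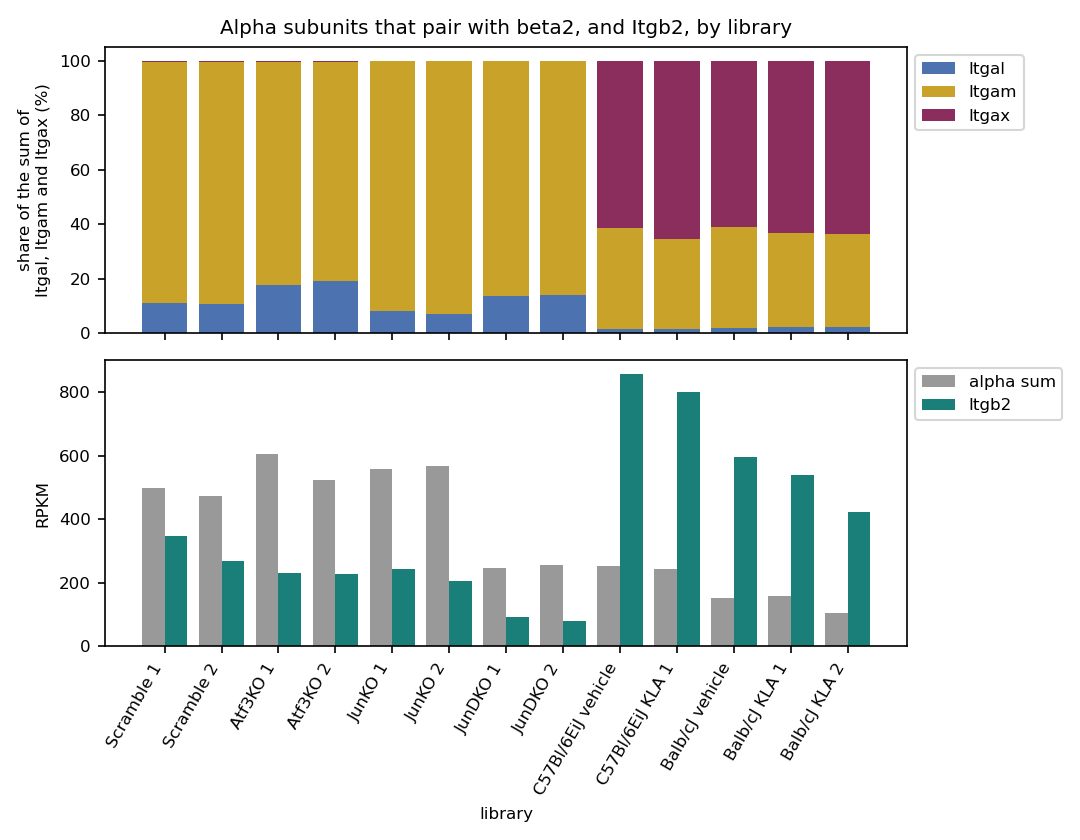
Top, the percent of summed RPKM of Itgal, Itgam and Itgax that each subunit made up in the 13 libraries. Bottom, that sum and the RPKM of Itgb2. Itgax makes up 61 to 65.6% in TGEMs and under 1% in iBMDMs, and Itgb2 exceeds the alpha sum in TGEMs only.

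Among the beta subunits, Itgb2 (log2 fold change 1.49) and Itgb5 (1.52) were called higher in TGEMs and Itgb1 was not called (0.09 ± 0.26, SE). Itgb3 and Itgb7 are given by their values alone, since they entered the test only through TGEMs. Itgb3 had 1291 reads in the vehicle TGEM library and 1 read in the 2 Scramble libraries, a depth-scaled ratio of 412 with an exact 95% interval of 73.9 to 16300, which covers counting error only and no spread between TGEM libraries. Itgb7 measured 47.2 and 55.4 RPKM in C57Bl/6EiJ TGEMs, 52.9, 47.0 and 52.1 in Balb/cJ TGEMs, 2.15 and 0.66 in Scramble, 1.11 and 1.30 in Atf3KO, 0 in both JunDKO libraries, and 1.10 and 0.22 in JunKO. Itgb7 was higher in each of the 5 TGEM libraries than in any iBMDM library. Itgb1 measured 178 and 140.1 RPKM in C57Bl/6EiJ and 192, 187 and 167 in Balb/cJ TGEMs.

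Itga4, the alpha partner of Itgb7 and Itgb1, went the other way: it measured 4.60 and 5.30 RPKM in C57Bl/6EiJ TGEMs and 8.41, 6.04 and 5.05 in Balb/cJ TGEMs, all below every iBMDM library (log2 fold change -2.82 ± 0.30, adjusted p = 2.11e-04). Itgav was at 13.5 and 14.3 RPKM in C57Bl/6EiJ and 11.4, 13.6 and 9.46 in Balb/cJ TGEMs. It was called lower in TGEMs only without Scramble replicate 1 (-1.12, adjusted p = 0.0426, against -0.88 with all libraries). Itga8 had 50 reads in Scramble and 0 in the vehicle TGEM library, at least 52.2-fold lower against a floor of 3 reads over the group, which covers counting error only, and Itga3, a laminin receptor alpha subunit, was 20.8 times higher in TGEMs by its depth-scaled reads (65 reads against 1, exact 95% interval 3.6 to 832, again counting error only).

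Cd9 measured 622 and 621 RPKM in C57Bl/6EiJ and 368, 273 and 349 in Balb/cJ TGEMs (log2 fold change against Scramble 1.19 ± 0.23, adjusted p = 0.00369). Selplg measured 66.1 and 62.7 RPKM in C57Bl/6EiJ and 65.3, 46.7 and 38.4 in Balb/cJ TGEMs (1.30 ± 0.38, adjusted p = 0.0248). The Selplg call was lost without Scramble replicate 1 (1.41, adjusted p = 0.0521) or replicate 2 (1.18, adjusted p = 0.0943), without the filter on low values (adjusted p = 0.0589) and after the GC correction (0.95). The log2 fold change between the cell types rose with GC content (Spearman's rho 0.44, given as a description), and Itga4 moved to -1.95 after the correction and was still called. Cd47 measured 59.7 and 57.4 RPKM in C57Bl/6EiJ and 35.7, 31.8 and 50.9 in Balb/cJ TGEMs, overlapping the iBMDM libraries. Icam1 was at 11.0 RPKM in the vehicle TGEMs (log2 fold change against Scramble -0.98, adjusted p = 0.0631) and was called lower after the GC correction (-1.31) and by limma-voom (-1.06). Icam2 stayed between 1.58 and 6.49 RPKM and F11r between 1.11 and 3.63 RPKM in TGEMs.

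TGEM libraries also held RNA of other peritoneal cells. The summed level of 7 mesothelial and fibroblast markers was 38.1 to 80.1 RPKM in TGEMs and at most 0.426 in iBMDMs, and that of 5 B cell markers 11.2 to 25.2 RPKM against at most 0.488, with none of either list at 0 in all TGEM libraries. The summed level of 7 eosinophil and mast cell markers was 1.27 to 6.71 RPKM in TGEMs with Prg2 at 0, that of 5 dendritic cell markers 0.653 to 2.67 RPKM, and that of 5 T cell markers at most 1.45 RPKM with Cd3d and Cd8a at 0. The summed level of 10 neutrophil markers was 15.2 to 35.5 RPKM, with Csf3r at 14.1 to 22.2 RPKM and Ly6g, S100a9, Retnlg and Camp at 0 in all TGEM libraries. The part of these cells in the differences of Itgax, Itgb7 and the others was not tested.

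The machinery around integrins was covered by 4 further lists: 40 genes of integrin activation and the adhesion complex, 28 integrin ligands and matrix genes, 11 tetraspanins and 24 other leukocyte adhesion genes. In JunDKO against Scramble 3 of 30 tested genes of the first list were called, 2 higher and 1 lower, among them Rasgrp3, an exchange factor for Rap1 (log2 fold change 3.34 ± 0.28), and Parvg, an adaptor of the integrin-linked kinase complex (1.14 ± 0.18). Of 9 tested ligands 1 was called higher, Thbs1 (2.22 ± 0.29), which is a ligand of Cd47 and integrins, and 2 lower, with Spp1 (osteopontin, -1.90 ± 0.22) the larger. With limma-trend 0 of 10 tetraspanins were called, with 5 at an unadjusted p under 0.05, while limma-voom called 1, Cd53, named after its values were seen. Alcam, an adhesion molecule of the immunoglobulin superfamily, was called lower (-1.22 ± 0.25). The list medians were -0.01, -0.67, -0.24 and -0.44, beside 0.23 over all models. In all 7 of 54 tested genes were called, against 4.97% of all models.

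In Atf3KO against Scramble the same lists gave 3 of 30, 1 of 9, 2 of 10 and 1 of 5 tested genes, together 7 of 54, against 12.5% of all models. Rap1a, the small GTPase that activates integrins through talin, measured 3.95 RPKM on average against 19.6 (log2 fold change -2.04 ± 0.24), and Sharpin, an inhibitor of integrin activation, 35.1 against 11.1 RPKM (1.60 ± 0.34). Tgm2, a transglutaminase that binds fibronectin (47.4 RPKM on average against 96.4), Alcam (-1.37 ± 0.25) and the tetraspanin Cd53 (-1.11 ± 0.33) were lower and Tspan32 (1.31 ± 0.20) was higher. JunKO against Scramble gave 0 calls in the 4 lists with limma-trend, with 11 of 54 tested genes at an unadjusted p under 0.05, and 0 with limma-voom. KLA against vehicle gave 0 calls with limma-trend, with 5 of 69 at an unadjusted p under 0.05, and 2 with limma-voom, Tgm2 and Rap1a, which are named after their values were seen. Balb/cJ against C57Bl/6EiJ gave 1, Mfge8, the bridge between dying cells and the alphav integrins (155 RPKM on average against 1890, -3.72 ± 0.28), of 69 tested, against 1.16% of all models.

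Between TGEMs and Scramble iBMDMs 16 of 34 tested genes of the adhesion complex were called, 9 higher and 7 lower, with Fgr, a Src-family kinase (3.00 ± 0.28), and Vcl, vinculin (2.90 ± 0.25), the largest. Of 15 tested ligands 6 were higher and 2 lower, led by Mfge8 (7.31 ± 0.31) and fibronectin, Fn1. Fn1 is given by its values alone, 81.9 RPKM in the TGEM library against a mean of 0.033 in Scramble. Genes such as Fn1 and the collagen gene Col1a2, at most at 0.115 RPKM in the iBMDM libraries, could pass the filter on low values through TGEMs alone. The count and the list median of 2.15, beside -0.24 over all models, lean toward such genes. Fibronectin is also a product of mesothelial cells and fibroblasts, whose markers are given above. Of 10 tetraspanins 1 was higher and 2 were lower, Cd81 (-3.14 ± 0.26) and Tspan32 (-3.01 ± 0.30), and 0 of 5 genes of the last list were called by limma-trend, with 2 at an unadjusted p under 0.05, and 0 by limma-voom. In all 27 of 64 tested genes were called, against 20.8% of all models, and the same limit of the filter applies to this count.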

How the data were processed

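PolyA RNA-seq values of 13 libraries were analysed; the 4 GRO-seq samples of the series were not analysed here. The authors deposited RPKM per gene model, made with STAR alignments to mm10 or a custom Balb/cJ genome and HOMER exon counts; tool versions and strand use are not given in the sources used here. Overlapping and antisense genes may therefore share reads. All values at low levels were whole multiples of 1 read (100% within 0.05 read), so reads and depth were recovered. Groups came from the titles and genotypes. The members and lists were chosen with earlier results of these data known.

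The authors tested reads with edgeR, which was not used here. Models averaging 1 RPKM or more were fitted as log2(RPKM + 1) with limma-trend (limma 3.58.1, R 4.3.3), 1 coefficient per group, over the 8 iBMDM, the 5 TGEM (with strain) or all 13 libraries, two-sided, adjusted by Benjamini-Hochberg over all models tested. Fold changes on this scale understate the change of low genes. A call needed an adjusted p under 0.05, 2-fold and a mean of 16 RPKM in either group. Members that reached 16 RPKM as a group mean or were called were given per library, and 2 called genes per other list and comparison by largest change. On simulated data with 200 genes changed 4-fold, 188 to 196 were called, with 0 to 3 unchanged genes. No replicate pair was a repeat of 1 library: chi-square per degree of freedom between replicates was 3.67 to 81. Alternatives were other pseudocounts, filters, scalings, a GC spline, limma-voom on recovered reads, other call limits, a replicate block and leaving out libraries. Tables and figures were made with pandas 2.3.3, numpy 2.4.6 and matplotlib 3.10.9 under Python 3.11.15. Of the macrophage marker list, 1 gene is not reported here. Same-numbered libraries of Scramble, JunKO and JunDKO deviated together (correlations of 0.18 to 0.22), so the number was also used as a block there.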

Additional observations from a re-analysis of the deposited data

How the results depend on the processing

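Of 144 counts of called members under an alternative, 119 were within 1.5 times the count as reported. The GC correction left 1 call in Atf3KO against Scramble. Requiring a log2 fold change of at least 2 left 0 calls in Atf3KO against Scramble, 2 in JunDKO against Scramble, 2 in Atf3KO against JunDKO, 0 in Atf3KO against JunKO, 3 in JunDKO against JunKO, 0 between strains and 6 between TGEMs and Scramble iBMDMs. Atf3KO against JunKO gave 5 calls with equal library medians, quantile normalization, limma-voom or no RPKM minimum. KLA gave 2 calls with limma-voom or no RPKM minimum, and the strains gave 0 without the low-value filter and 3 with limma-voom. Leaving out 1 library at a time gave 2 to 6 calls in Atf3KO against Scramble, 2 to 5 in Atf3KO against JunKO, 8 in Atf3KO against JunDKO, 4 to 5 in JunDKO against Scramble, 4 to 5 in JunDKO against JunKO, 0 in JunKO against Scramble, 0 to 2 for KLA, 0 to 1 between strains and 9 to 10 between TGEMs and Scramble. For 65 member results, those with an adjusted p under 0.05 and Itga5 after KLA, 834 log2 fold changes were recomputed: 697 kept their direction and side of the threshold, 135 no longer passed, 1 newly passed and 1 reversed. Itga4 in Atf3KO against JunDKO was 0.08 after the GC correction and -0.72 before it. Of the other 107, which did not pass, 32 changed sign under at least 1 alternative. Equal library medians moved the median of all models by -0.28 in JunDKO against Scramble, where 164 models were then called higher and 363 lower, against 288 and 243 before, and the 4 called members kept their calls.

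The correlation of deviations between same-numbered libraries was 0.18 to 0.22 among Scramble, JunKO and JunDKO, which share 1 label date, and -0.21 to -0.12 between these and Atf3KO. With the replicate number as a block the counts of called members were 6 for Atf3KO, 0 for JunKO and 4 for JunDKO against Scramble, 8 for Atf3KO against JunDKO, 3 for Atf3KO against JunKO and 5 for JunDKO against JunKO, as without it. A block over Scramble, JunKO and JunDKO alone, chosen after seeing the data, gave 0, 4 and 5 called members in their 3 comparisons, and 63 called models in JunKO against Scramble, where 21 were called as reported. In the TGEMs the label dates pair 1 vehicle with 1 KLA library in each strain, and with the label date in place of strain KLA gave 1 call, Icam1, as with strain. Groups of 1 or 2 libraries limit every test here, and values near 1 read limit the low members.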
